A study of Mus musculus with 21 samples.

Results

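The 34 genes described here encode the folding, quality control and stress signalling machinery of the endoplasmic reticulum (ER), and their RNA was measured in mouse liver after a drug that blocks microRNA-122. They were taken by gene symbol from a given list, and earlier results of these data were known when it was chosen. Each is represented by 1 probe set, the one with the highest mean over all 21 arrays. All 34 are among the 18193 genes measured. By role they divide into 11 chaperones of the ER lumen and their helpers, 4 disulfide isomerases, 8 genes of degradation and translocation, 4 stress sensors and their factors, and 7 genes of the branch controlled by the transcription factor Atf4.

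The study dosed female mice of the outbred NMRI stock on day 2 with SPC3372, an antisense oligonucleotide with locked nucleic acid bases against microRNA-122 (antimiR-122), at 25 mg per kg, or with the saline vehicle. Livers were taken on day 3, 9 or 23 from 3 treated and 3 saline mice each, which gives 6 groups and 18 mice. Whole-liver RNA was hybridised to Affymetrix mouse arrays in 2 sets named in the labels, p0617 for all mice of days 3 and 9 and p0621 for the comparison at day 23, so no comparison of treated with saline mice crosses the sets. Levels are log2 values from robust multi-array averaging (RMA), made by the authors, and every change below is a difference of mean log2 levels with the standard error (SE) of the fit.

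Secreted and membrane proteins enter the ER through the Sec61 channel, fold there with the help of chaperones such as Hspa5 (BiP) and of disulfide isomerases, and are sent back to the cytosol for destruction when they fail. Sensors in the ER membrane read the load of unfolded protein: Ern1 (IRE1) splices the mRNA of Xbp1, Atf6 is cut to free a transcription factor, and Eif2ak3 (PERK) slows translation and favours the making of Atf4, which raises amino acid and stress genes. Hepatocytes secrete most plasma proteins and carry a heavy folding load. The arrays measure RNA amounts and read neither the splicing of Xbp1 nor the cutting of Atf6.

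The promoters of the chaperones and of the Atf4 branch held different letters of known stress elements. The letters searched on both strands, in a window of 250 bases before to 50 bases after the annotated start, were the ER stress element (CCAAT and CCACG separated by 9 bases), through which Atf6 and Xbp1 act, its second form (ATTGG, any base, CCACG), the box CCACG that both forms contain, the unfolded protein response element TGACGTGG and the amino acid response element TGATGNAA, through which Atf4 acts. Of the 34 genes, 30 had a window in the RefSeq promoter table of GRCm38.p6. The ER stress element stood in 9 of those 30 (30%), against 37 of 27025 genes in the whole table (0.137%). It was found in 6 of 9 lumenal chaperones (Hspa5, Hsp90b1, Calr, Canx, Dnajc3 and Creld2), in Pdia6 of the 4 isomerases, in Syvn1 and Derl3 of 7 degradation and translocation genes, and in 0 of 7 genes of the Atf4 branch. The second form stood in Dnajb11 and Herpud1 (2 of 30, against 0.0444% of all genes), and the CCACG box in 23 of 30, against 35.5%. The unfolded protein response element stood in 0 of 30, against 0.714% of all genes. The amino acid response element stood in 5 of 30 (16.7%), against 4.51% of all genes, and 4 of the 5 belong to the Atf4 branch: Atf3, Trib3, Asns and Chac1. A match of letters is a description and not a bound site.

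The next 5 sequences are shown because they carry the ER stress element in genes whose levels are described below; they are 5′ to 3′ on the strand of the gene, and capitals mark the CCAAT and CCACG boxes, or ATTGG and CGTGG where the element lies on the other strand.
Hspa5: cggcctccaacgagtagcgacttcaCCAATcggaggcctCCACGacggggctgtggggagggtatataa
Hsp90b1: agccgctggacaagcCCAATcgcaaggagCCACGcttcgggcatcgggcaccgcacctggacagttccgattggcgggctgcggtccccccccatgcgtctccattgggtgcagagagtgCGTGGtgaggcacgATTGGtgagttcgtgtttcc
Creld2: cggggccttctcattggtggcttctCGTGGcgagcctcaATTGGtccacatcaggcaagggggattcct
Pdia6: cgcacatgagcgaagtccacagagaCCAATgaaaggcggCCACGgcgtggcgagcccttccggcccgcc
Syvn1: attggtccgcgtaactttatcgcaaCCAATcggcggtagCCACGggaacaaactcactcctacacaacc

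In GRCm38.p6 the Hspa5 stretch is chr2:34772000-34772068 on the plus strand, and the Hsp90b1 stretch, which holds the element 2 times, is chr10:86705518-86705671 on the minus strand. The stretches of Creld2 (chr15:88819495-88819563), Pdia6 (chr12:17266466-17266534) and Syvn1 (chr19:6046507-6046575) lie on the plus strand. All 5 end upstream of the annotated start, at -22, -74, -83, -55 and -1 in that order.

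The following 3 sequences carry the amino acid response element, which reads TTGCATCA on the strand of these genes and is in capitals; Herpud1, a degradation gene, also holds the second form of the ER stress element, in capitals near its end, and so has letters of both kinds.
Herpud1: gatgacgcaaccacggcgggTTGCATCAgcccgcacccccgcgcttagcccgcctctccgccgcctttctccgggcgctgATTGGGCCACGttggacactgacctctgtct
Atf3: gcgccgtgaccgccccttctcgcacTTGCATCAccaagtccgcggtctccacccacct
Chac1: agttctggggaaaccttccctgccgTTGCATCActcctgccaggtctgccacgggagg

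Herpud1 lies at chr8:94386297-94386407 (plus strand), Atf3 at chr1:191183411-191183468 (minus strand) and Chac1 at chr2:119351024-119351081 (plus strand). They end at -22, -78 and -161 from the annotated start.

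Whole-liver RNA mixes cell types, so fewer cells of a type and less RNA per cell cannot be told apart in what follows. The hepatocyte marker Alb, the albumin gene, stood at 14.77 to 14.93 on the 21 arrays, where the highest value of any probe set was 14.98. The summed level of 6 hepatocyte markers lay between 16.71 and 16.84 on every array and 0 of the 6 passed the test in any of the 5 comparisons of groups made here. That sum follows its brightest markers, Alb, Apoa1 and Ttr (medians 14.84, 14.64 and 14.58), so it says little of the share of hepatocytes. Hnf4a, the dimmest of the 6, ranged from 11.28 to 12.13. Arrays of the same group correlated at 0.9918 to 0.9951 over all probe sets. Nothing in the labels says more of the 3 mice of a group than that they are biological replicates.

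At day 3, the day after dosing, 3 of the 34 genes were lower in treated than in saline liver and 0 were higher. They are Pdia6 and Pdia3, isomerases that form and shuffle disulfide bonds (Pdia3 on glycoproteins held by Calr and Canx), and Atf6, the sensor that becomes a transcription factor. Past the threshold means a limma p-value adjusted by Benjamini-Hochberg over all 18193 genes under 0.05. Over all genes 1.86% passed in the lower and 2.62% in the higher direction, and 3 of 34 is a larger share than the first but a count of few genes.

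Pdia6 stood at 11.11, 11.22 and 11.06 in the 3 saline mice of day 3 and at 10.67, 10.95 and 10.43 in the 3 treated mice. All treated values lay below all saline values, and the change was -0.45 (SE 0.11, adjusted p = 0.0203), a 1.36-fold decrease. Atf6 stood at 8.01, 8.02 and 8.15 in saline and at 7.42, 7.58 and 7.66 in treated mice, also without overlap, a change of -0.51 (SE 0.12, adjusted p = 0.0213). For Pdia3 the saline mice had 11.72, 12.002 and 11.63 and the treated mice 11.39, 11.51 and 11.06, a change of -0.46 (SE 0.12, adjusted p = 0.0364). The gap between the groups was narrow for Pdia6 and Pdia3, whose highest treated mouse came close to the lowest saline mouse. Other probe sets of the same genes did not repeat these changes: 2 of Atf6 differed by -0.04 and 0.07, 1 of Pdia3 by -0.01 and 1 of Pdia6 by 0.09, and those of Pdia3 and Pdia6 were dim.

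**Figure D1:**
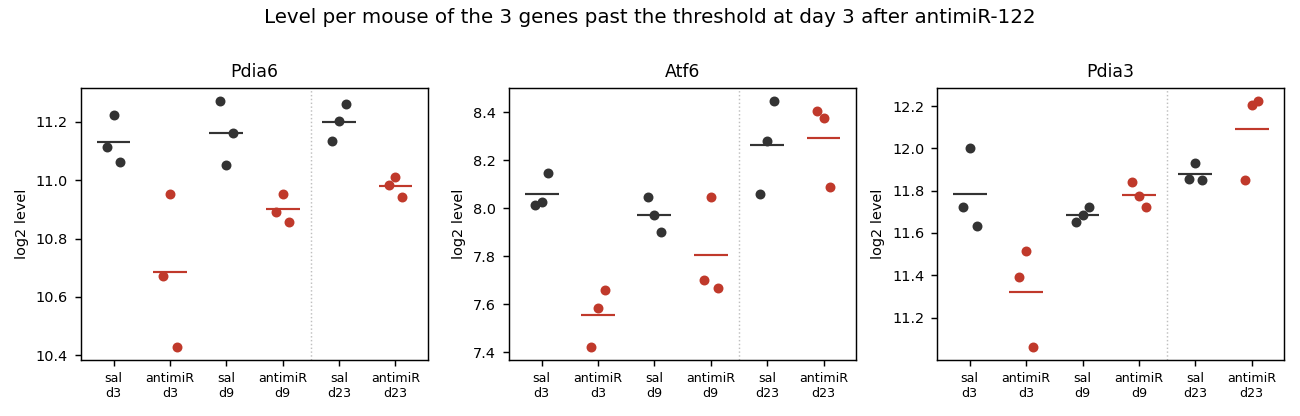
Log2 level (vertical axis) of Pdia6, Atf6 and Pdia3 in each mouse by day and treatment (horizontal axis; sal, saline; dotted line, change of array set); points are single mice and bars the mean of 3. At day 3 all treated mice lie below all saline mice in the 3 panels, and at day 9 and day 23 the test was not passed in any.

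These 3 calls rested on few arrays. Counts over all genes are not given for the fits below that leave out 1 mouse. Whether the 34 genes depend more on single mice than other genes do was not tested. Without the first treated mouse of day 3, or without the second saline mouse of day 3, 0 of the 34 genes passed, and without the first saline mouse 1 did; without the second treated mouse 6 passed, adding Dnajb9 (-0.64, adjusted p = 0.0443), Dnajb11 (-0.53, 0.0375) and Syvn1 (-0.77, 0.0452). Pdia3 and Pdia6 also fell short without the third treated mouse (adjusted p = 0.135 and 0.0739) and Atf6 without the third saline mouse (0.0763). With the mean of all probe sets of a gene, 1 passed, Dnajc3. Derl2, a Derlin channel gene, stood at 11.17, 11.25 and 10.92 in saline and at 10.79, 10.66 and 10.93 in treated mice (-0.32, SE 0.10, adjusted p = 0.0783). It passed under 5 other settings: filters at the median (adjusted p = 0.0411) and the 75th percentile of level (0.0296), an intensity trend with a robust prior (0.0425), and without the third treated (0.0463) or the third saline mouse (0.0289).

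Most of the other chaperones lay lower as well without passing. Of the 34 genes, 28 had a change below 0 and their median was -0.21, beside a median of 0.01 and 47.2% below 0 over all genes. An unadjusted p under 0.05 with a lower level was reached by 12 of the 34, beside 9.08% of all genes, and 7 of the 34 had treated mice wholly below saline mice, beside 10.3% of all genes. Among the 15 chaperones and isomerases, 14 lay below 0 with a median of -0.27. Among the 7 genes of the Atf4 branch, 5 lay below 0 with a median of -0.05, and 0 passed in either direction. The 2 sets of genes lay at different levels. Apart from Atf4 (10.63), the branch had mean levels of 5.45 (Asns) to 7.17 (Ddit3). The 15 chaperones and isomerases had 7.49 (Sdf2l1) to 13.27 (Hspa5). RMA shrinks differences of dim probe sets, and the part of level in the 2 medians was not tested.

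Hspa5, the main chaperone and itself the brake on all 3 sensors, stood at 13.57, 13.50 and 13.60 in saline mice of day 3 and at 13.28, 13.51 and 13.09 in treated mice. The second treated mouse reached the saline range, and the difference of -0.27 (SE 0.14) did not pass (adjusted p = 0.344). Hsp90b1, the ER form of Hsp90, stood at 12.26, 12.47 and 12.33 in saline and at 12.05, 12.36 and 11.92 in treated mice, a difference of -0.24 (SE 0.11, adjusted p = 0.244). Here too the second treated mouse was the highest of its group and lay among the saline mice.

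The 3 lowest differences of the 34 genes at day 3 belonged to small helpers of the lumen, and none passed. Sdf2l1, a partner of the Hspa5 cycle, differed by -0.97 (SE 0.40, adjusted p = 0.202), Creld2 by -0.94 (SE 0.40, adjusted p = 0.217) and Manf, a secreted stress protein that binds Hspa5, by -0.54 (SE 0.23, adjusted p = 0.218). For Manf the saline mice had 12.26, 12.17 and 12.32 and the treated mice 11.54, 12.12 and 11.48. Its treated mice lay below all saline mice, the second by little.

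Xbp1 and the 7 genes of the Atf4 branch did not pass on day 3, and the branch ranged from -0.22 (Ddit3) to 0.59 (Chac1). Xbp1, the factor made by Ern1 splicing, stood at 11.88, 11.75 and 11.69 in saline and at 11.68, 11.72 and 11.65 in treated mice (difference -0.09, 95% interval -0.33 to 0.15). Atf4 stood at 10.82, 10.71 and 11.04 in saline and at 10.76, 10.86 and 10.81 in treated mice (-0.05, 95% interval -0.27 to 0.18). Ddit3 (CHOP), a target of Atf4 tied to cell death, stood at 7.49, 6.95 and 7.68 in saline and at 7.31, 7.58 and 6.57 in treated mice (-0.22, 95% interval -0.66 to 0.23). In all 3 genes the groups overlapped. Asns, asparagine synthetase, had treated mice at 5.36, 5.41 and 5.30, wholly below saline mice at 5.66, 5.53 and 5.46, a difference of -0.19 that did not pass (SE 0.13, adjusted p = 0.473). Chac1, which breaks down glutathione, had the highest difference of the 34 genes (0.59, SE 0.32, adjusted p = 0.345), and the eIF2α phosphatase subunit Ppp1r15a by -0.01 (SE 0.10).

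Dnajc3 (p58IPK), a co-chaperone of Hspa5, is named because its probe sets disagreed, as seen after its values were known. The probe set used differed by -0.12 at day 3 (SE 0.11, adjusted p = 0.63). Of its 4 others, 3 were lower in treated mice in a fit of every probe set with a single gene symbol, by -0.72 (adjusted p = 0.00589), -0.55 (0.0412) and -1.59 (0.00338), and the fourth differed by -0.10. At day 9 and day 23 none of the 5 passed.

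The treated mice did not move alike. Each mouse was summarised by the median deviation of the 15 chaperones and isomerases from the mean of the saline mice of its day. At day 3 this was -0.31, -0.05 and -0.47 in the 3 treated mice, so the second mouse was at the level of saline. For the 7 genes of the Atf4 branch it was -0.10, 0.01 and 0.01 in the same mice.

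**Figure D2:**
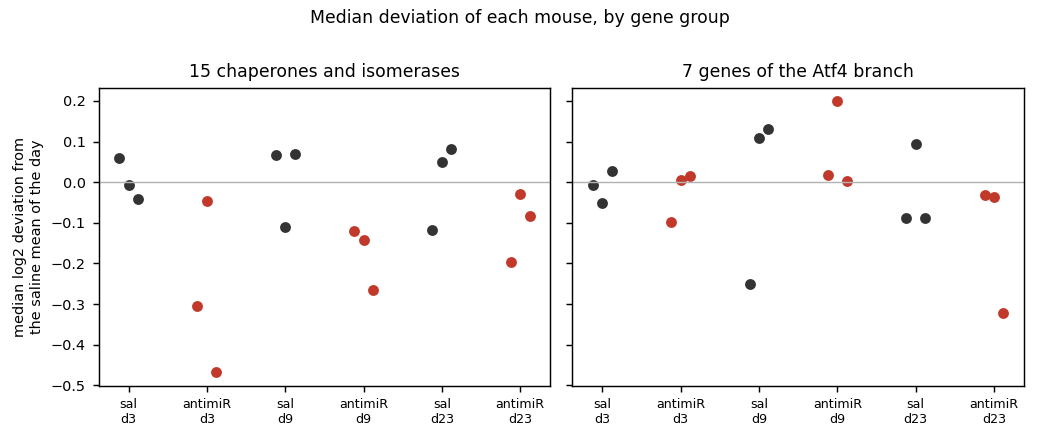
Median log2 deviation from the saline mean of the same day (vertical axis) for each mouse by day and treatment (horizontal axis; sal, saline), over the 15 chaperones and isomerases (left) and the 7 genes of the Atf4 branch (right). At day 3 the treated mice lie at -0.31, -0.05 and -0.47 on the left and between -0.10 and 0.01 on the right.

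Other measures moved with treatment at day 3. Of 8 macrophage markers 6 were higher, with a median change of 0.85 over the 8, and their summed level ranged from 12.82 to 13.44 in treated and from 12.01 to 12.84 in saline mice. Of 6 T and NK cell markers 2 were higher (summed level 8.40 to 9.06 against 7.72 to 8.06), and 0 of 5 B and plasma cell, 0 of 3 neutrophil and 0 of 4 stellate cell markers passed. The part of these cells in the lower chaperone levels was not tested. The ratio of 3′ to 5′ signal of the beta-actin array controls, a measure of RNA integrity and labelling given on the log2 scale, was 1.03 ± 0.02 in treated and 0.80 ± 0.05 in saline mice (SD, n = 3). The same ratio of the Gapdh array controls was 0.12 ± 0.18 in treated and 0.07 ± 0.19 in saline mice, so only the beta-actin ratio stood apart. With the beta-actin ratio as a covariate 0 of the 34 genes passed at day 3, and the changes of Pdia6, Atf6 and Pdia3 were -0.54, -0.57 and -0.31. Over all genes the 815 that passed at day 3 became 98. On single arrays the beta-actin ratio was 1.01 to 1.05 in treated and 0.76 to 0.85 in saline mice of day 3. It moved with treatment, so this fit can hardly tell them apart.

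Other genes of the pathway, 81 measured of 85 listed by textbook role, gave 5 lower and 2 higher at day 3 with a median of -0.10. Over all genes 1.86% were lower and 2.62% higher. By role the medians ran from -0.20 in folding and oxidation (17 of 19 below 0) to 0.07 in targets of Atf4 (15 of 24 above 0). The lower ones with the smallest adjusted p were the amino acid transporter subunit Slc3a2 (-0.66, adjusted p = 0.000221), the channel subunit Sec61a1 (-0.37, 0.00997) and the oxidase Ero1a, which passes oxidising power to the isomerases (-0.38, 0.0257). The higher ones were Eif2ak1, an eIF2α kinase that senses heme (0.44, 0.0246), and the lipoprotein receptor Vldlr (1.99, 0.0309). Slc3a2 and Vldlr are both listed targets of Atf4, so that role held 1 lower and 1 higher gene.

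At day 9, 0 of the 34 genes passed between treated and saline mice, beside 2.81% of all genes in either direction. The median change was -0.03. At an unadjusted p under 0.05, 4 of the 34 were lower (Manf -0.57, Dnajb11 -0.32, Pdia6 -0.26 and Canx -0.19), beside 8.15% of all genes, and in 4 of 34 the treated mice lay wholly below the saline mice, beside 11.2%. Of the 15 chaperones and isomerases 12 lay below 0 (median -0.15), and of the 7 genes of the Atf4 branch 6 lay above 0 (median 0.07). Pdia6 stood at 11.27, 11.05 and 11.16 in saline and at 10.89, 10.95 and 10.86 in treated mice, still without overlap. Atf6 overlapped, with 8.05, 7.97 and 7.90 in saline and 7.70, 8.05 and 7.67 in treated mice. Pdia3 stood at 11.65, 11.68 and 11.72 in saline and at 11.84, 11.78 and 11.72 in treated mice, a difference of 0.09 (SE 0.12).

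Hspa5 at day 9 stood at 13.28, 12.64 and 13.15 in saline and at 12.78, 12.86 and 12.56 in treated mice (-0.30, SE 0.14, adjusted p = 0.305). Of the wider list 2 of 81 were higher at day 9, Eif2ak1 again (0.48, adjusted p = 0.022) and the seryl-tRNA synthetase Sars (0.48, 0.0148), and 0 were lower. Over all genes 1.91% were higher and 0.896% lower. The beta-actin ratio also differed at day 9, at 1.14 ± 0.02 in treated and 0.93 ± 0.06 in saline mice (SD, n = 3), while 0 of 8 macrophage markers passed. The Gapdh ratio lay the other way, at -0.06 ± 0.04 in treated and 0.15 ± 0.16 in saline mice. Of 4 stellate cell markers 2 were higher, with a median change of 0.46 over the 4, and their summed level ranged from 11.39 to 11.44 in treated and from 10.67 to 11.07 in saline mice; no marker of the T and NK, B and plasma or neutrophil lists passed. The part of the array control ratios or of these markers in the levels of the 34 genes was not tested. Leaving out the second saline mouse of day 9 brought Manf past the threshold (-0.86, adjusted p = 0.0468).

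At day 23, 0 of the 34 genes passed, beside 0.385% of all genes in either direction. The lowest p belonged to Sec61b, a subunit of the Sec61 channel, which stood at 10.51, 10.70 and 10.80 in saline and at 10.36, 10.39 and 10.25 in treated mice. The groups did not overlap, and the change of -0.34 (SE 0.08) had an adjusted p of 0.073. It passed under 5 other settings: quantile normalization (adjusted p = 0.0469), filters at the median (0.035) and the 75th percentile of level (0.0192), an intensity trend with a robust prior (0.0411), and without the first saline mouse (0.0471).

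Of the 8 genes of degradation and translocation 7 lay below 0 at day 23 with a median of -0.29, beside a median of -0.09 over the 34 genes. At an unadjusted p under 0.05, 6 of 34 were lower, beside 7.99% of all genes, and 4 of the 6 were of this role: Syvn1, the ligase that marks misfolded proteins for destruction (-0.72), the Derlin channel genes Derl3 (-0.40) and Derl1 (-0.25), and Sec61b. The others were the co-chaperone Dnajb9 (-0.51) and Trib3 (-0.46), a pseudokinase that holds back Atf4 and Ddit3. In 7 of 34 the treated mice lay wholly below the saline mice, beside 11.1% of all genes. Syvn1 stood at 9.44, 10.16 and 10.12 in saline and at 9.30, 9.23 and 9.04 in treated mice, where the first saline mouse lay near the treated ones.

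The 15 chaperones and isomerases had a median of -0.09 at day 23. Hspa5 stood at 13.40, 13.68 and 13.57 in saline and at 13.40, 13.54 and 13.44 in treated mice (-0.09, SE 0.14), and Hsp90b1 at 12.13, 12.17 and 12.18 against 12.24, 12.33 and 12.32 (0.14, SE 0.11). Pdia3 was 0.21 above saline (SE 0.12) and Atf6 0.03 above (SE 0.12). Both genes had passed at day 3, and the change of their effect from day 3 to day 23 did not pass: 0.68 for Pdia3 (SE 0.17, adjusted p = 0.137) and 0.53 for Atf6 (SE 0.17, adjusted p = 0.256). Over all 34 genes, 0 passed in the change of the effect from day 3 to day 9, beside 0.143% of all genes, 0 from day 9 to day 23, beside 0.0055%, and 0 from day 3 to day 23, beside 0.302%. In the fit of limma at an unadjusted p under 0.05 these counts were 3, 4 and 7 of 34, beside 11.6%, 8.68% and 10.2% of all genes, so the first lay below and the second near the share of all genes.

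**Figure D3:**
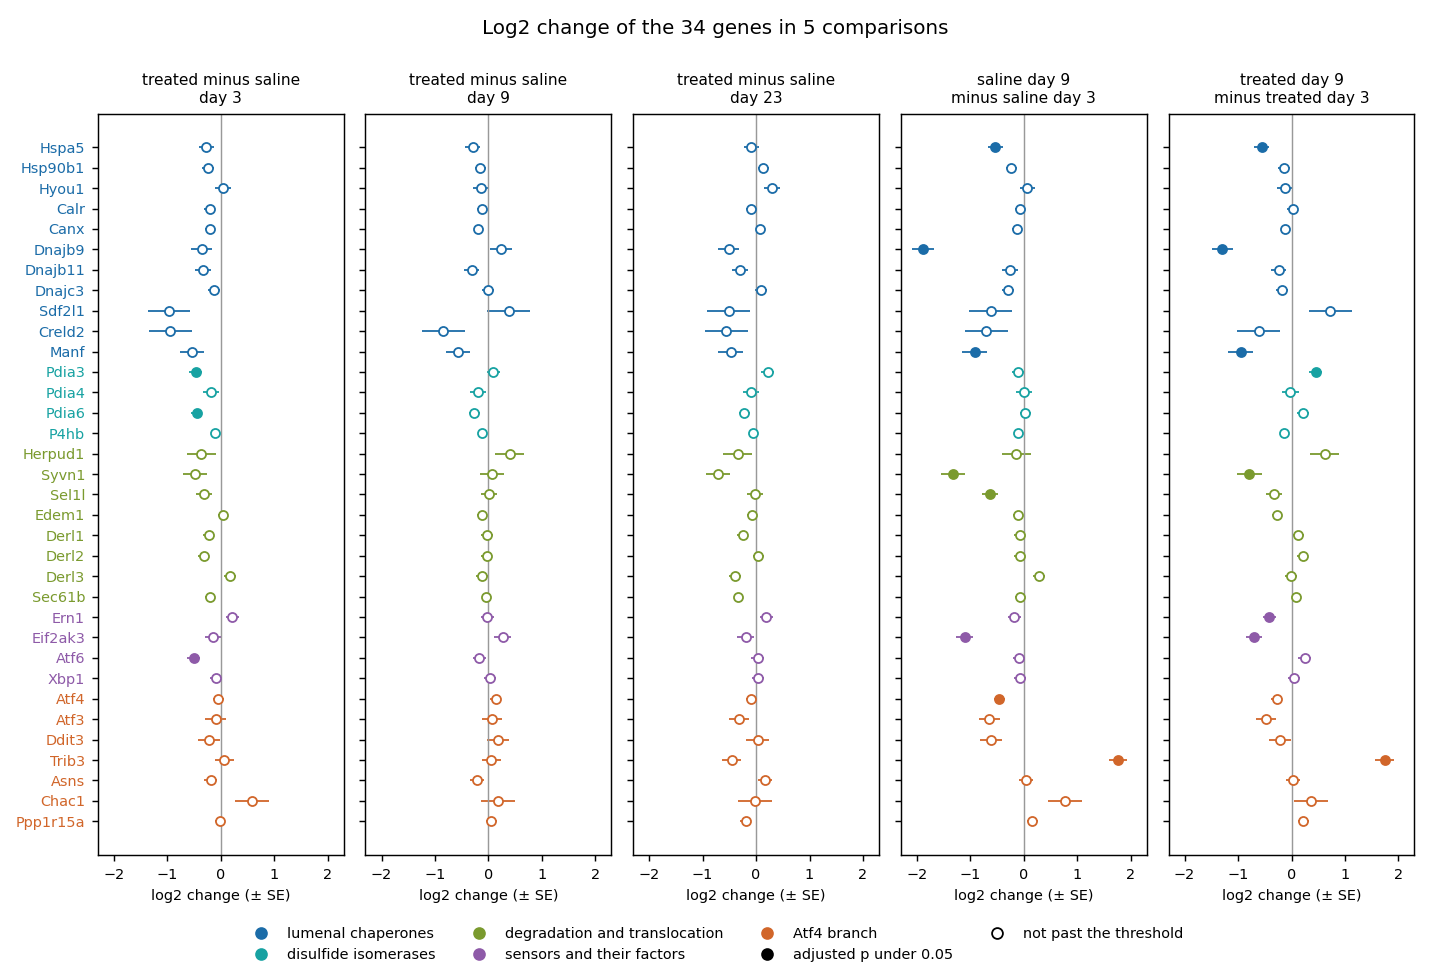
Log2 change ± SE (horizontal axes) of the 34 genes, ordered and coloured by role, in 5 comparisons; filled points have an adjusted p under 0.05 and open points do not. The filled points number 3 at day 3, 0 at days 9 and 23, and 8 in each comparison of day 9 with day 3.

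More of these genes passed between days than between treatments. In saline mice, which received no drug, 7 of the 34 genes were lower and 1 was higher on day 9 than on day 3. Over all genes 3.11% were lower and 2.76% higher. The lower genes are the chaperone Hspa5 and its helpers Dnajb9 and Manf, the degradation genes Syvn1 and Sel1l, which form 1 ubiquitin ligase complex, the sensor kinase Eif2ak3 and the factor Atf4. The higher one is Trib3. Saline mice of day 3 and day 9 are also the controls of the drug comparisons at those days, so these values are not independent of the drug effects above.

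Dnajb9 (ERdj4), which hands clients to Hspa5 and holds Ern1 inactive, stood at 11.36, 11.54 and 11.62 on day 3 and at 9.85, 9.49 and 9.52 on day 9 in saline mice. The gap between the days was far wider than the spread within either, with a change of -1.89 (SE 0.20, adjusted p = 2.52e-05), a 3.7-fold decrease. Eif2ak3 stood at 7.60, 7.73 and 7.74 on day 3 and at 6.80, 6.50 and 6.45 on day 9 (-1.11, SE 0.15, adjusted p = 0.000342). Its 2 other probe sets did not follow (-0.14 and 0.24).

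Syvn1 stood at 9.75, 9.66 and 9.80 on day 3 and at 8.52, 8.11 and 8.59 on day 9 (-1.33, SE 0.22, adjusted p = 0.00153), and its second probe set changed by -1.22 (adjusted p = 0.00631). Sel1l, which holds Syvn1 in its complex, stood at 10.08, 10.23 and 10.27 on day 3 and at 9.75, 9.42 and 9.49 on day 9 (-0.64, SE 0.15, adjusted p = 0.0146). Of its 4 other probe sets 1 passed (-0.64, adjusted p = 0.0486) and 3 lay between -0.30 and -0.08. Both genes of the complex had saline groups that did not overlap. Syvn1 passed without any 1 mouse, and Sel1l did not pass without the third mouse of day 3 (adjusted p = 0.0603) or the second or the third of day 9 (0.0681 and 0.0632).

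Hspa5 stood at 13.57, 13.50 and 13.60 on day 3 and at 13.28, 12.64 and 13.15 on day 9 in saline mice (-0.53, SE 0.14, adjusted p = 0.0345). The second mouse of day 9 was the lowest, and without it the change was -0.34 (adjusted p = 0.162). Hspa5 also fell short without the third mouse of day 9 (adjusted p = 0.0538) or without any 1 mouse of day 3 (0.0622 to 0.104). Manf stood at 12.26, 12.17 and 12.32 on day 3 and at 11.47, 10.76 and 11.77 on day 9 (-0.92, SE 0.23, adjusted p = 0.0235), again with that mouse lowest and a change of -0.63 without it (adjusted p = 0.117); it fell short as well without the first or the third mouse of day 3 (0.0709 and 0.0782). Hsp90b1 differed by -0.23 (SE 0.11, adjusted p = 0.268), with 12.21, 11.95 and 12.21 on day 9. The 4 isomerases lay between -0.11 and 0.03, and 0 passed.

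Within the Atf4 branch the genes went apart. Trib3 stood at 5.43, 5.63 and 5.26 on day 3 and at 6.85, 7.18 and 7.57 on day 9 in saline mice, a change of 1.76 (SE 0.18, adjusted p = 1.64e-05) or 3.39-fold, and its second probe set rose by 2.34 (adjusted p = 0.00011). Atf4 itself stood at 10.82, 10.71 and 11.04 on day 3 and at 10.39, 10.42 and 10.38 on day 9, a change of -0.46 (SE 0.11, adjusted p = 0.0154). A second Atf4 probe set fell by 0.61 on the log2 scale (adjusted p = 0.0101) and the third differed by -0.03. Without the third mouse of day 3 or of day 9 Atf4 did not pass (adjusted p = 0.0851 and 0.0562). Ddit3 stood at 6.75, 6.63 and 6.91 on day 9, against 7.49, 6.95 and 7.68 on day 3, and its change of -0.61 (SE 0.21) did not pass (adjusted p = 0.11). Atf3 differed by -0.64 (SE 0.19, adjusted p = 0.0564) and Chac1 by 0.78 (SE 0.32, adjusted p = 0.191).

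Xbp1 stood at 11.92, 11.52 and 11.68 on day 9 in saline mice, a difference from day 3 of -0.07 (95% interval -0.31 to 0.17), and Atf6 differed by -0.09 (95% interval -0.34 to 0.16). Of the 34 genes 14 had day 9 wholly below day 3, beside 10.4% of all genes, and 3 wholly above (Trib3, Derl3 and Chac1), beside 11.4%. The median change was -0.12, against 0.01 over all genes. By promoter, the 9 genes with the ER stress element had a median of -0.23, with 2 lower (Hspa5 and Syvn1), and the 21 without it a median of -0.11, with 4 lower and 1 higher. Manf, also lower, had no window. For treated minus saline the medians with and without the element were -0.24 and -0.17 at day 3. They were -0.15 and 0.05 at day 9, and -0.10 and -0.09 at day 23. Between days in treated mice they were -0.14 and -0.02.

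**Figure D4:**
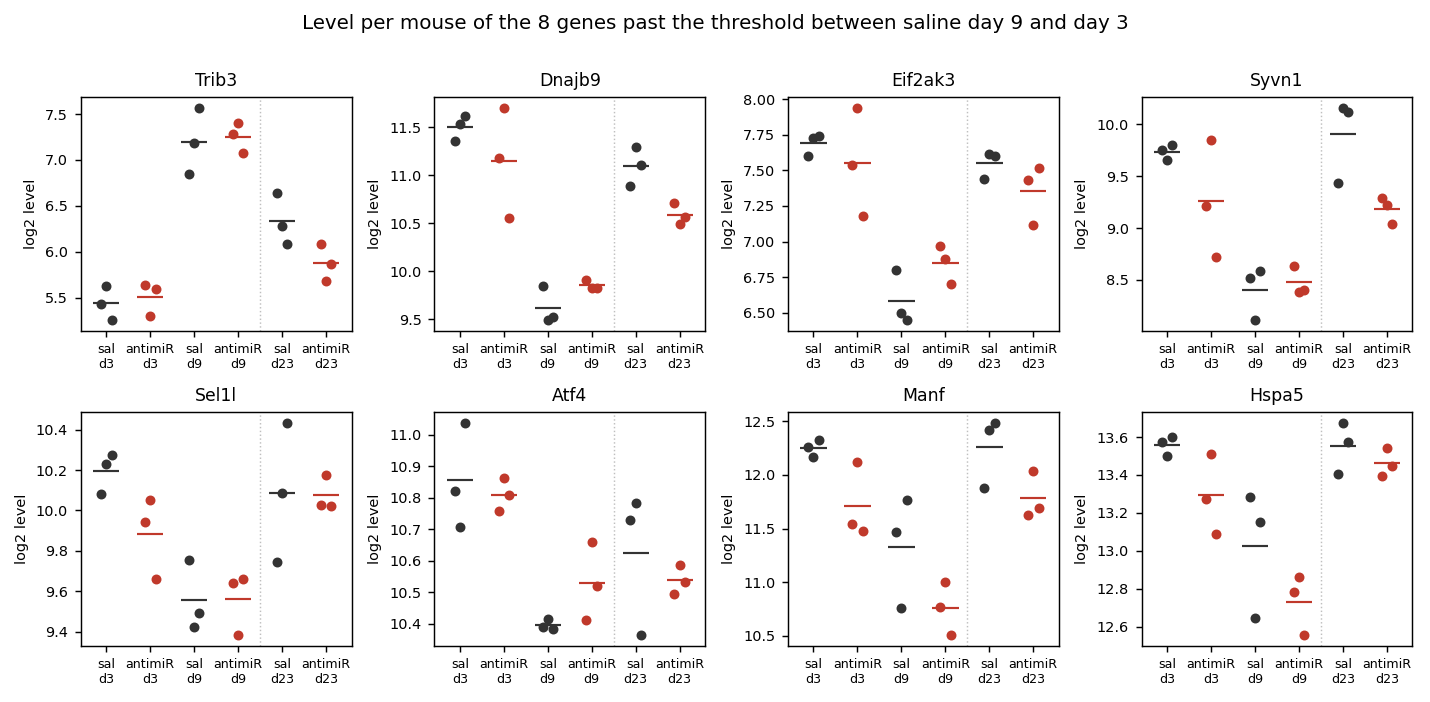
Log2 level (vertical axes) in each mouse by day and treatment (horizontal axes; sal, saline; dotted line, change of array set) of the 8 genes that passed between saline mice of day 9 and day 3; points are mice and bars the mean of 3. Saline mice of day 9 lie below those of day 3 in 7 panels and above them for Trib3. The treated and saline means of day 9 lie closest for Sel1l (9.56 and 9.55), Trib3 (7.25 and 7.20) and Syvn1 (8.48 and 8.41).

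Treated mice gave the same comparison on other animals and other arrays, and it was added after the data were seen. In them 6 of the 34 genes were lower and 2 higher on day 9 than on day 3, beside 4.94% and 7.29% of all genes. Trib3 rose from 5.64, 5.30 and 5.59 to 7.28, 7.40 and 7.08 (1.75, SE 0.18, adjusted p = 1.3e-05). Dnajb9 fell from 11.18, 11.71 and 10.55 to 9.91, 9.83 and 9.83 (-1.29, SE 0.20, adjusted p = 0.000535). The treated mice of day 3 were spread over more than 1 log2 unit for Dnajb9, and those of day 9 over less than 0.1.

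Eif2ak3 fell from 7.54, 7.94 and 7.18 to 6.97, 6.87 and 6.70 (-0.70, SE 0.15, adjusted p = 0.00686), and Syvn1 from 9.22, 9.85 and 8.72 to 8.64, 8.39 and 8.41 (-0.79, SE 0.22, adjusted p = 0.03). Manf fell from 11.54, 12.12 and 11.48 to 10.77, 10.9998 and 10.51 (-0.95, SE 0.23, adjusted p = 0.0124) and Hspa5 from 13.28, 13.51 and 13.09 to 12.78, 12.86 and 12.56 (-0.56, SE 0.14, adjusted p = 0.0159). In each of these 4 genes the groups did not overlap. Hspa5 and Manf fell short without the second mouse of day 3 (adjusted p = 0.0702 and 0.0579) or the third of day 9 (0.0695 and 0.0532), and Syvn1 without any 1 of 4 mice, the first or second of day 3 and the second or the third of day 9 (0.0747 to 0.13). Sel1l (-0.32, adjusted p = 0.173) and Atf4 (-0.28, adjusted p = 0.1) lay lower without passing.

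The 2 other genes past the threshold in treated mice were Ern1, which was lower (-0.42, SE 0.12, adjusted p = 0.0322), and Pdia3, which was higher (0.46, SE 0.12, adjusted p = 0.0204). In saline mice Ern1 differed by -0.18 and Pdia3 by -0.10. Neither call held throughout: Ern1 fell short without the first or second mouse of day 3 or the first or the third of day 9 (adjusted p = 0.0951 to 0.14 for day 3, 0.103 and 0.089 for day 9), and Pdia3 without the third of day 3 (0.0913) or the first or second of day 9 (0.074 and 0.0543). The 4 other probe sets of Ern1 lay between -0.31 and 0.54 and 0 passed. With the probe sets of Pdia3 averaged, its change was 0.17 and did not pass in limma (adjusted p = 0.249). In treated mice 10 of the 34 genes had day 9 wholly below day 3, beside 15.3% of all genes, and 4 wholly above, beside 14.8%.

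Of the 8 genes that passed in saline mice, all 8 had the same sign in treated mice and 6 passed there: Trib3, Dnajb9, Eif2ak3, Syvn1, Manf and Hspa5. Over all genes 588 passed in both arms, 55% of the 1069 that passed in saline and 26.4% of the 2225 that passed in treated mice, and 94.6% of the 1069 had the same sign in treated mice. Over the 34 genes 22 had the same sign, beside 61.2% of all genes. Pearson's r between the changes of the 2 arms was 0.838 and Spearman's rho 0.738 across the 34 genes, and r was 0.663 without Trib3 and Dnajb9; the points share 12 arrays and genes are not independent replicates. The difference between the arms is the change of the drug effect from day 3 to day 9, which 0 of 34 genes passed. For Sdf2l1, which went opposite ways (-0.62 in saline and 0.73 in treated mice), it was 1.35 (SE 0.57, adjusted p = 0.366). For Pdia3 it was 0.56 (SE 0.17, adjusted p = 0.207).

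**Figure D5:**
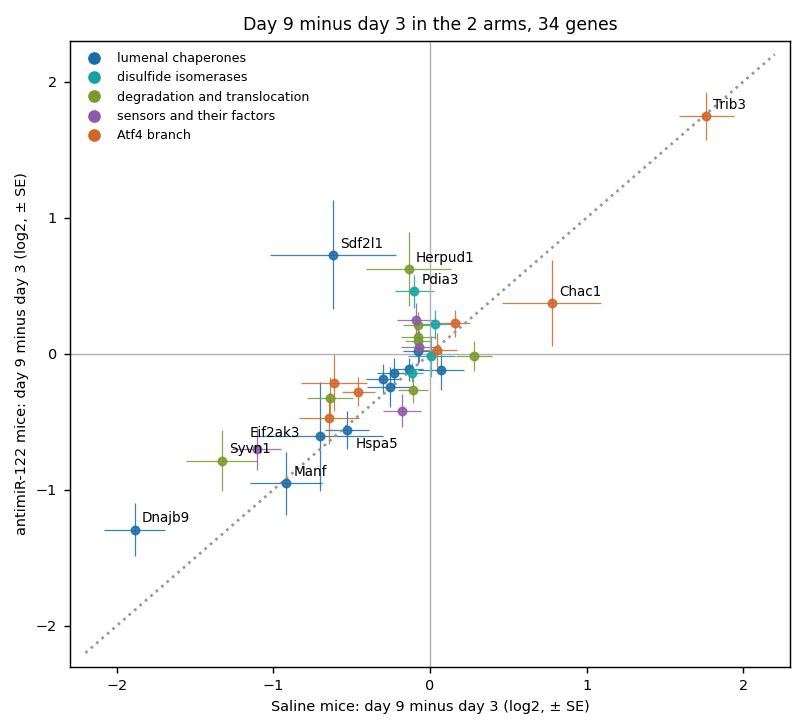
Change from day 3 to day 9 of the 34 genes in saline mice (horizontal axis) and in treated mice (vertical axis), log2 ± SE, coloured by role; the dotted line marks equal change. Trib3 lies at 1.76 and 1.75, Dnajb9 at -1.89 and -1.29, and Sdf2l1, Herpud1 and Pdia3 lie above 0 in treated mice only.

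Genes of the circadian clock, a list added after the data were seen, moved between the same days in both arms. In saline mice 9 of 10 passed, 4 higher and 5 lower, and in treated mice 8 of 10, 4 each way. The clock output factor Dbp changed by 5.21 in saline mice (SE 0.37, adjusted p = 1.44e-06) and by 5.68 in treated mice, and Cry1, a repressor in the clock loop, by -2.81 (SE 0.21, adjusted p = 1.44e-06) and -2.24. Per1 differed by -0.02 in saline mice. The clock list also differed between treated and saline mice at day 9, where 1 gene was higher and 1 lower. Its changes there ran from -1.25 to 1.04, and over all genes 1.91% were higher and 0.896% lower. At day 3 and at day 23, 0 of the 10 passed between treated and saline mice. The labels give no hour of killing or of feeding, and the part of either in the levels of the ER genes was not tested. Of other measures between the days in saline mice, 0 of the macrophage, T and NK, B and plasma, neutrophil and stellate cell markers passed, and the beta-actin ratio was 0.80 ± 0.05 on day 3 and 0.93 ± 0.06 on day 9 (SD, n = 3). The 4 stellate cell markers all lay below 0 without passing (median -0.44, lowest -0.64). The Gapdh ratio was 0.07 ± 0.19 on day 3 and 0.15 ± 0.16 on day 9. With the beta-actin ratio as a covariate 4 of the 34 genes passed in saline mice, Trib3, Dnajb9, Eif2ak3 and Syvn1. Over all genes the 1069 became 594. The other 4 kept changes of about the same size with the covariate: Hspa5 -0.54, Manf -0.94, Sel1l -0.65 and Atf4 -0.39, against -0.53, -0.92, -0.64 and -0.46 without it (adjusted p = 0.0597 to 0.11 with it).

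In treated mice markers of other cells moved between the same days. Of 8 macrophage markers 4 were lower on day 9 than on day 3 (median -0.61 over the 8), 7 of the 8 had day 9 wholly below day 3, and the summed level went from 12.82 to 13.44 on day 3 to 12.37 to 12.53 on day 9. Of 6 T and NK cell markers 2 were lower, of 5 B and plasma cell markers 1 and of 3 neutrophil markers 1, while 1 of 4 stellate cell markers was higher. Their part in the day changes of the ER genes in treated mice was not tested.

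Of the 81 other genes of the pathway, 8 were lower and 0 higher on day 9 than on day 3 in saline mice, beside 3.11% and 2.76% of all genes. The smallest adjusted p belonged to Txndc11, a thioredoxin-domain protein (-1.40, adjusted p = 1.17e-05), Edem3, a mannosidase that tags misfolded glycoproteins (-0.85, 0.000124), Ero1a (-0.67, 0.000344), the ubiquitin-conjugating enzyme Ube2g2 (-0.62, 0.000871) and the prolyl isomerase Fkbp14 (-0.81, 0.00215). All 5 also fell in treated mice, by 0.32 (Ero1a) to 0.76 (Txndc11) on the log2 scale. In treated mice 8 of 81 were lower and 7 higher, beside 4.94% and 7.29% of all genes. Edem1 and Hyou1, 2 of the 34 genes that did not pass with the probe set used (-0.11 and 0.07), each had another that was lower in saline mice (-0.52, adjusted p = 0.00364, and -1.28, adjusted p = 0.013).

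Levels of day 23 can be set beside those of the other days within array set p0617 for the treated mice only, which were also run there, and the genes did not share 1 order of days. Trib3 stood there at 5.98, 5.96 and 6.13, above all treated mice of day 3 and below all of day 9. Dnajb9 stood at 10.55, 10.36 and 10.12, above all treated mice of day 9, with its first value equal to the lowest of day 3 at this rounding. In contrast, the mean of day 23 was the highest of the 3 days for Manf (11.80, against 11.71 on day 3 and 10.76 on day 9), Hspa5 (13.34, against 13.29 and 12.73) and Sdf2l1 (8.18, against 6.66 and 7.38). For Manf and Hspa5 the means of day 3 and day 23 differed by less than the SD of either group, and day 23 was not tested against the other days. Between their 2 arrays these 3 mice differed by at most 0.70 for any of the 34 genes (Sdf2l1 in 1 mouse), and in a limma fit with the mouse as a block 0 of 18193 genes passed between the sets, against 1853 at an unadjusted p under 0.05, 3 of them among the 34.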

How the data were processed

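The deposited log2 values of 45101 probe sets on 21 arrays were made by the authors with RMA, per the submitters' processing notes; its version, and whether both array sets went through it together, is not given in the sources used. RMA shrinks differences of dim probe sets. Gene names came from the platform annotation (34945 with 1 symbol, 932 with several, 9160 with none, 64 controls), and 1 probe set was kept per gene (18193 genes). For 23 of the 34 genes there were others.

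Group means of 18 arrays, 1 per mouse (p0621 at day 23), were fitted with limma 3.58.1 (lmFit and eBayes, 12 residual and 4.85 prior degrees of freedom) in R 4.3.3, two-sided, with Benjamini-Hochberg adjustment over 18193 genes at 0.05. The 6 groups share 1 estimate of the spread. Mouse numbers recur between days and were taken as different animals. With 3 arrays a group, their number limits the precision. The steps were tested on simulated data. Promoters were read from a RefSeq table of GRCm38.p6 with Python 3.11.15, and figures were drawn with matplotlib 3.10.9. Proteins were not used here.

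Per-array values are given for each of the 34 genes past the threshold in a drug comparison, a change between days or the saline comparison, and always for Hspa5, Hsp90b1, Xbp1, Atf4 and Ddit3; from the wider list at most 5 per comparison are named, those with the smallest adjusted p. The genes and lists were chosen with earlier results of these data known. Other settings were a fit of the compared arrays, quantile normalization, median centring, the p0617 arrays at day 23, filters on level (median or 75th percentile), probe sets averaged by gene, a prior with intensity trend and robust fit, the replicate block, a minimum change of 1.5-fold, leaving out each array and, added after the data were seen, the beta-actin ratio as a covariate.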

Additional observations from a re-analysis of the deposited data

How the results depend on the processing

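Under the settings tried, Trib3, Dnajb9 and Eif2ak3 passed between day 9 and day 3 in both arms in each fit that gave them a value, and Syvn1 in saline mice. The counts below are of the 34 genes unless given over all genes. At day 3 the count of 3 became 1 in a fit of the compared arrays, 1 with probe sets averaged by gene, 0 with a change of at least 1.5-fold and 0 with the beta-actin ratio as a covariate, and it became 4, adding Derl2, with each filter on level and with an intensity trend and robust prior. Over all genes the 815 at day 3 became 254 with the compared arrays, 733 with averaged probe sets, 311 with 1.5-fold and 98 with the beta-actin ratio. With the filters, which test fewer genes, there were 1076 (median) and 718 (75th percentile), and with the trend 908. At day 23 the count of 0 became 1 (Sec61b) with quantile normalization, with each filter on level and with an intensity trend and robust prior. Over all genes the 70 at day 23 became 139 with quantile normalization, 339 (median) and 384 (75th percentile) with the filters, and 210 with the trend. The 70 became 0 in a fit of the compared arrays, 43 with median centring and 54 with averaged probe sets. They became 23 with 1.5-fold and 179 with the p0617 arrays. In saline mice between days the 8 became 4 with the beta-actin ratio, and in treated mice the 8 became 5 in a fit of the compared arrays and 5 with a change of at least 1.5-fold. Over all genes 1069 became 594 in that saline comparison. In treated mice 2225 became 1420 with the compared arrays and 733 with 1.5-fold. Leaving out 1 array at a time gave 0 to 6 at day 3, 0 to 1 at day 9, 0 to 1 at day 23, 4 to 8 between days in saline mice, 4 to 8 in treated mice, and 0 to 0 for each change of the drug effect. Counts over all genes are not given for these fits, so the ranges are not read as particular to the 34 genes. In saline mice the lowest counts were 4 without the third mouse of day 3 and 5 without the second or the third of day 9; in treated mice, 4 without the third of day 9. Hyou1 between saline days turned from 0.07 to -0.47 (adjusted p = 0.0432) with its probe sets averaged. Replicate numbers did not pair the groups (correlations of deviations -0.15 to 0.0783); with the replicate number as a block the counts were 3, 0 and 0 at days 3, 9 and 23, 7 in saline mice (Hspa5 at adjusted p = 0.0535) and 8 in treated mice, and over all genes at day 23 the 70 became 13. The cause of these differences was not tested. With 3 mice a group, what the fit called depended on each gene's spread: at day 3 Pdia6 passed at -0.45 (SE 0.11) and Sdf2l1 at -0.97 (SE 0.40) did not.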
